A study of Homo sapiens with 12 samples.

Results

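The genes described here are 10 early response genes of the EGR, IER and KLF families together with ARC (EGR1, EGR2, IER2, IER3, IER5, KLF4, KLF5, KLF6, KLF10 and ARC), out of 57736 genes in the count tables (27326 of them counted at least once). They were taken by name, after their counts with and without the extract and in both cell lines had been seen, so that their fold changes and their differences between the lines are given as a description: where one is said to be called, this is what the fit over all genes gave and no independent evidence of the change. RNA was measured in HepG2 cells, an established line from a human liver cancer, and in Ls174 cells, an established line from a human colon cancer, both labelled wild type (WT). Each line was kept either without treatment (control) or with HME, an extract of the red alga Hypnea musciformis, at 0.7 mg/ml per the labels (the study's methods give a slightly higher concentration, chosen near its IC50 in the lines), for 24 h, with 3 libraries from separate cultures per group and 12 libraries in all. Cells were grown in DMEM with serum. The study's methods place HME in medium without serum for the viability, cell death and mitochondrial assays and do not say whether serum was present in the RNA cultures or their controls. HME is a mixture whose active compounds the labels do not name. Reads came from the 3′ ends of polyadenylated transcripts, and a long transcript therefore gathers no more counts than a short one at the same level. All libraries were taken at 24 h, and the time course by which such genes are usually called early was not measured.

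Immediate early genes are switched on within minutes of a growth factor, cytokine or stress signal, without new protein synthesis, because the transcription factors that drive them are already in the cell and are activated by phosphorylation. A major route runs through the MAP kinases to ternary complex factors, which sit with serum response factor (SRF) on a promoter element called the CArG box, and many of the resulting transcripts decay quickly. EGR1 and EGR2 are zinc finger transcription factors that bind GC-rich sites, and EGR2 is best known for its role in hindbrain patterning and myelination. IER2, IER3 and IER5 are small immediate early proteins, of which IER3 (also called IEX-1) takes part in the balance of survival and death under stress and IER5 binds the phosphatase PP2A and heat shock factor 1. The KLF proteins are zinc finger factors that bind GC-rich and CACCC elements. In the gut, KLF4 marks differentiated, non-dividing epithelium and KLF5 the dividing crypt cells, KLF6 is a widely expressed factor induced by injury, and KLF10 was first found as a gene induced by TGF-beta. ARC encodes a cytoskeletal protein best known from active neurons.

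The promoters of the EGR genes are shown because they carry the CArG box through which SRF acts, and those of IER5 and KLF6 because both genes were called higher with HME in HepG2 cells without such a box in the same window. Of the 10 genes, 7 matched 1 or more promoter entries of RefSeq (GRCh38.p14, 250 bases before to 50 bases after a transcription start), with 3 entries for EGR2, 2 for KLF5 and 10 entries in all, and IER3, KLF10 and ARC had no entry. Each sequence is written 5′ to 3′ on the strand of its gene, and capitals mark every match on either strand to 5 motifs, where matches may overlap. The first is the CArG box, 2 C, then 6 bases that are each A or T, then 2 G. The second, TGACG, is the core of the cyclic AMP response element. An ETS factor site was searched as CCGGAA. A site of the EGR proteins themselves was searched as GCGNGGGCG. The last, the TATA box, was searched as TATANA. For EGR2 the entry with a CArG box is shown.
EGR1 promoter, chr5:138465229-138465528, plus strand: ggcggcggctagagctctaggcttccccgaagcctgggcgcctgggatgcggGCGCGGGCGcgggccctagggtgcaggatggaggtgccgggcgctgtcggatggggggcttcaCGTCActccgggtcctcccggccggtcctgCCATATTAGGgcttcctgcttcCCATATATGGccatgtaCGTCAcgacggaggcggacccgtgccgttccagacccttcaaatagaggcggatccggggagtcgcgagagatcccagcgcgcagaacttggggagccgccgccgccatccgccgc
EGR2 promoter, chr10:62816317-62816616, minus strand: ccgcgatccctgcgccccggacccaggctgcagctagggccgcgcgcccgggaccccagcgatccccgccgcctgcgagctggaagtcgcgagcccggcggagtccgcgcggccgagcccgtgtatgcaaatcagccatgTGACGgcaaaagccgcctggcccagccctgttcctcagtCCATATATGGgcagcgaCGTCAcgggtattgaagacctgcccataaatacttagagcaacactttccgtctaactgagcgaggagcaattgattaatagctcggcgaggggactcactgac
IER5 promoter, chr1:181088450-181088749, plus strand: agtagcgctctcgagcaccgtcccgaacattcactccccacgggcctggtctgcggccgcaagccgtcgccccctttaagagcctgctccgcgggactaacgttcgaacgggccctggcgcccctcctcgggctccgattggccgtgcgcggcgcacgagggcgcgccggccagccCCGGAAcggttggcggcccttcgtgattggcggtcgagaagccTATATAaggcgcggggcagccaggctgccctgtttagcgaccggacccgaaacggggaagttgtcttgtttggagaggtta
KLF6 promoter, chr10:3785160-3785459, minus strand: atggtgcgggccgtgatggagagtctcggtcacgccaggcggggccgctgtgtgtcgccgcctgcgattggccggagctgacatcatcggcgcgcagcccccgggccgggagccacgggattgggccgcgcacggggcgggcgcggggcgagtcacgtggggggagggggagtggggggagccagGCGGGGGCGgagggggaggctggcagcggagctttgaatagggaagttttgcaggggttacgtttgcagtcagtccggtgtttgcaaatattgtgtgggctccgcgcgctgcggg

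The EGR1 window held 2 CArG boxes, which begin 105 and 83 bases before the start, and the EGR2 window held 1, which begins 71 bases before the start. Among all 35116 promoters of the table, 1.29% held a CArG box, and among the 10 entries of these genes 2 did. The cyclic AMP element core stood in 5 of the 10 entries against 24.6% of all promoters, the EGR site in 4 against 9.43%, the ETS site in 2 against 17.2% and the TATA box in 2 against 19.0%. The KLF6 window held 1 match to the EGR site, which begins 65 bases before the start, and the IER5 window held a TATA box 31 bases and an ETS site 74 bases before the start. The motifs were searched as letters only and in the single forms given above, so that an ETS site written otherwise than CCGGAA, for example, was not marked. The absence of a match therefore says nothing of what binds inside or outside these windows.

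Many immediate early transcripts carry copies of ATTTA, the core of AU-rich elements that shorten the life of a transcript. A stretch of the counted 3′ region of IER3 and another of that of KLF6, from the reference genome GRCh37, are shown because each holds 2 copies close together, in capitals, in the genes with the highest and the third highest mean level in HME-treated HepG2 cells.
IER3, chr6:30711432-30711451, minus strand: ttaatATTTAtatgtATTTA
KLF6, chr10:3820985-3821014, minus strand: gtgtATTTAcaaatataacacaacaATTTA
The whole IER3, KLF5 and KLF6 regions held 6 copies each and that of KLF10 held 5, while the IER2 and ARC regions held 0. The KLF6 region has 3754 nt, that of KLF5 1957 nt and that of IER3 1100 nt, beside a median of 1397 nt over all genes compared. No background of ATTTA copies is given for whole regions. The longer form TTATTTATT stood in 1 of the 10 whole regions (KLF5), beside 9.19% of 11175 protein-coding genes. Both stretches shown above lie outside the last 500 nt, where IER3 held 1 copy and KLF6 0. In the last 500 nt of the region, 6 of the 10 genes held ATTTA at least once, beside 60.8% of 9677 protein-coding genes with a region of that length, and 1 of 10 (KLF10) held at least 3 copies, beside 14.4%. The median was 1 copy both for the 10 genes and for all. By this measure the 10 genes were close to the background. Up to 209 nt of these windows lay outside annotated exons, and the copies were not set against the changes with HME.

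The counted regions were 3′ ends of the genes on hg19 (GRCh37). Over the 12 libraries together, the most counted region of each gene took at least 94.8% of its counts, and no comparison between alternative 3′ ends was run. In single libraries the share could be lower. A second KLF5 region (chr13:73636681-73636996) held 3, 27 and 15 of the 133, 102 and 69 KLF5 counts in HME-treated HepG2 cells. It held 0 in each HepG2 control, where KLF5 had 6, 2 and 4 counts, and this difference was not tested. EGR1 (ENSG00000120738) was counted at chr5:137803771-137805201 on the plus strand and EGR2 (ENSG00000122877) at chr10:64571559-64572966 on the minus strand. The IER regions lay at chr19:13264673-13265919 (IER2, plus), chr6:30710779-30711878 (IER3, minus) and chr1:181059023-181059977 (IER5, plus). The KLF regions lay at chr9:110246936-110248031 (KLF4, minus), chr13:73649917-73651873 (KLF5, plus), chr10:3817991-3821744 (KLF6, minus) and chr8:103660810-103662359 (KLF10, minus), and that of ARC at chr8:143692405-143693218 (minus). By the GENCODE annotation these regions were mostly non-coding exon sequence, with coding sequence in those of IER3 (163 nt), KLF5 (105 nt) and KLF6 (11 nt). The IER5 region ends at position 181059977, before the annotated end of the gene at 181062036. In 8 of the 10 regions, all but those of IER5 and ARC, 194 to 209 nt lay outside the annotated exons. The IER3 region overlaps a gene annotated on the opposite strand, and how the counting treated strand was not given in the sources used here, so that reads of the pair could not be separated.

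Library totals ranged from 1790841 to 3656662 counts, and levels are given as CPM (counts scaled to a library total of 1000000) with TMM normalization, within a line for the effect of HME and over all 12 libraries for differences between the lines. A gene at or under 3 counts in a library was treated as being at the floor, which was at most 1.84 CPM in HepG2 control cells. By summed level the labelled lines fitted their markers: 12 hepatocyte markers summed to 27927 to 33507 CPM in HepG2 controls and 20804 to 23142 CPM with HME, where every HME library lay below every control, and 12 colon markers to 648 to 751 CPM in Ls174 and 19.0 to 29.8 CPM in HepG2 cells, although MUC2, the main goblet cell mucin, had at most 7 counts there. Hepatocyte markers summed to 0.334 to 172 CPM in Ls174 cells, where each of the 12 was above 3 counts in at least 1 control library, highest in control 3 (ALB at 176 counts, and at 0 in the other 2 controls). The part of the lower hepatocyte marker level in the HepG2 values with HME was not tested. Of 8 mesenchymal markers, 5 were above 3 counts in HME-treated HepG2 cells, with sums of 4.41 and 15.7 CPM in 2 libraries and 891 CPM in HME 2, where COL1A1 had 1560 and COL1A2 1153 counts. The blood markers summed to 93.0 to 514 CPM in HepG2 and at most 4.97 CPM in Ls174 cells, and the endothelial markers to at most 4.28 CPM. Only 3 of the 8 blood markers were above 3 counts in each HepG2 group. LYZ alone had 1656, 146 and 1365 counts in HepG2 controls and 1387, 1118 and 719 with HME. HepG2 control 2, HepG2 HME 2 and Ls174 control 1 stood apart within their groups: 83, 115 and 55 genes with at least 50 counts were at least 5 times higher there than in both other libraries of the group, against 0 to 10 genes in each other library, and KLF10 in HepG2 HME 2 was the single case among the 10 genes.

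In HepG2 cells, the HME libraries lay above the control libraries for all 10 genes, and 7 of the 8 genes with enough counts for the fit were called higher with HME at an adjusted p under 0.05 (EGR1, IER3, IER5, KLF5, KLF6, KLF10 and ARC), none lower. Over all 11343 genes fitted, 2.77% were called higher. All 3 HME libraries lay above all 3 controls for 16.6% of them, and for all 8 of the fitted genes described here. EGR2 and KLF4 had too few counts to be fitted and are not part of that comparison. IER2 was fitted and not called, although DESeq2, a fit without a filter on low counts and a fit of all 12 libraries each called it. At the unadjusted thresholds of the study (p under 0.05 and a log2 fold change above 0.58) all 8 fitted genes passed, beside 11.3% of all genes. The median log2 fold change of the 8 genes was 5.20, beside −0.04 over all genes. These values were what the genes were chosen on. In RNA from whole cultures, more cells with a transcript and more RNA per cell cannot be told apart.

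EGR1 had 20, 7 and 3 counts in HepG2 control cells, or 4.82, 4.28 and 1.09 CPM. With HME it had 424, 536 and 303 counts, or 156, 176 and 170.2 CPM. The lowest treated library was thus far above the highest control, and the means were 3.40 ± 2.02 and 167 ± 10.2 CPM (SD, n = 3). The log2 fold change was 5.60 ± 0.51 (SE), or 48.4-fold, the 15th largest of the 11343 genes. Control 3 was at the floor, and with 1 library left out the log2 fold change ran from 5.177 to 6.065. EGR2, whose promoter entry shown above holds 1 CArG box, had 0 counts in each control and 3, 3 and 1 counts with HME, all at or under the floor, so that no fold is given.

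Among the IER genes, IER3 had the highest level with HME and the largest change. It had 307, 86 and 199 counts (74.0, 52.6 and 72.1 CPM) in HepG2 control cells and 7798, 10011 and 6268 counts (2868, 3279.6 and 3521 CPM) with HME. Its log2 fold change was 5.60 ± 0.38 (SE), or 48.5-fold, close to that of EGR1. The means were 66.2 ± 11.8 and 3223 ± 330.5 CPM (SD, n = 3).

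IER5 had 36, 10 and 16 counts without HME (8.68, 6.12 and 5.80 CPM) and 222, 269 and 112 with it (81.6, 88.1 and 62.9 CPM). The groups did not overlap, and the log2 fold change was 3.47 ± 0.35 (SE), or 11.1-fold. IER2 had the highest mean of the 10 genes in untreated HepG2 cells, with 240, 260 and 188 counts, although IER3 lay above it in controls 1 and 3. Because control 2 was a smaller library, these counts stood for 57.8, 159 and 68.1 CPM, beside 201, 279.8 and 285 CPM with HME. Control 2 lay nearest to the treated libraries, and the log2 fold change of 1.43 ± 0.43 (SE), or 2.70-fold, was not called. Without control 2 it was 2.04 ± 0.27 (SE) and called.

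The KLF genes differed in level and in size of change. KLF5 was close to the floor in HepG2 control cells, with 6, 2 and 4 counts (1.45, 1.22 and 1.45 CPM). With HME it had 133, 102 and 69 counts (48.9, 33.4 and 38.8 CPM). All treated libraries lay above all controls by a wide margin, and the log2 fold change was 4.81 ± 0.41 (SE), or 28.0-fold.

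KLF6 was the KLF gene with the highest level in untreated HepG2 cells. Its controls were spread, with 234, 70 and 44 counts (56.4, 42.8 and 15.9 CPM), and its treated libraries were close together at 490, 604 and 392 counts (180.2, 198 and 220.2 CPM). The groups did not overlap, and the log2 fold change was 2.37 ± 0.45 (SE), or 5.18-fold. Its call was lost when any 1 of the 3 treated libraries was left out, with fold changes of 2.46, 2.39 and 2.31 on the log2 scale.

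KLF10 had 18, 4 and 10 counts in HepG2 control cells (4.34, 2.45 and 3.62 CPM) and 93, 1425 and 85 counts with HME (34.2, 467 and 47.8 CPM). HME 2 thus stood about an order of magnitude above the other treated libraries, which themselves lay above every control. The log2 fold change was 5.66 ± 1.05 (SE), the least precise of the KLF genes, and 3.51 without HME 2, where the gene was still called. HME 2 is the library with the high COL1A1 and COL1A2 counts, and the part of those transcripts, or of whatever came with them, in the KLF10 value was not tested. The call was also lost without control 1 or without control 3, at 5.86 and 5.67 on the log2 scale, and DESeq2 gave the gene no adjusted p.

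KLF4 had 3, 0 and 0 counts in HepG2 control cells and 6, 12 and 3 with HME (2.21, 3.93 and 1.69 CPM). It was not fitted. The ratio of the summed counts, scaled to library size, was 7.92, with an exact 95% interval of 2.36 to 41.5 that covers counting error only.

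ARC was at 0 in all 3 HepG2 controls and had 13, 17 and 22 counts with HME (4.78, 5.57 and 12.4 CPM). Against the floor of 3 counts per library the mean of 7.57 ± 4.17 CPM (SD, n = 3) was at least 4.12-fold higher. Its fitted fold change depends on the small number added to zero counts and is not quoted, and the call was lost without HME 3, the treated library with the highest level.

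**Figure D1:**
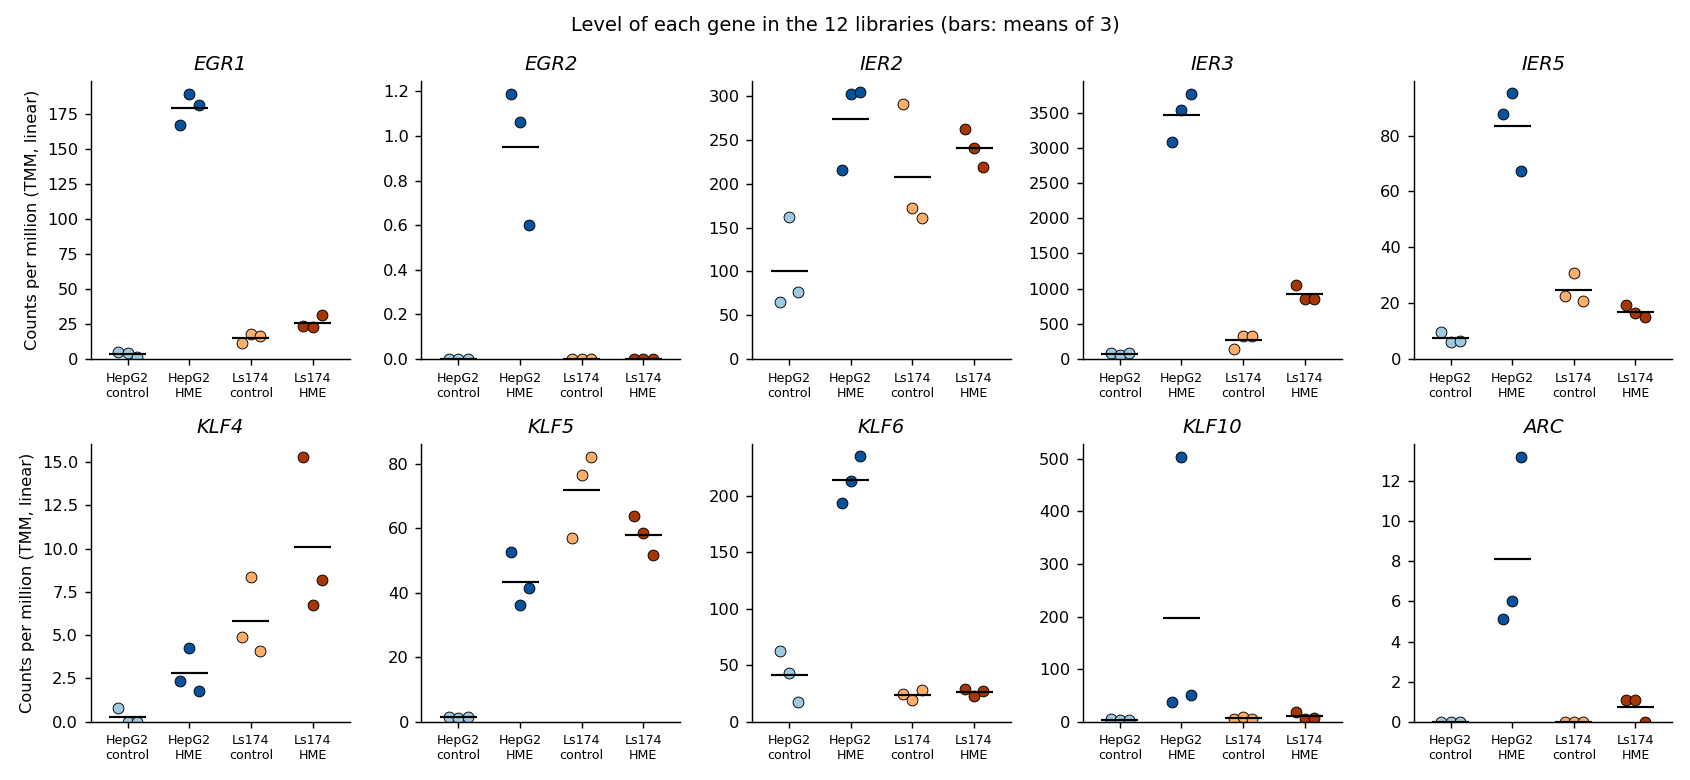
Level of the 10 genes in the 12 libraries, in CPM with TMM normalization over all libraries, on a linear axis that starts at 0 and differs between genes; points are libraries and bars are means of 3. The HepG2 HME libraries lie above the HepG2 controls for each gene, KLF10 in HepG2 HME 2 stands alone near 504 CPM, and in Ls174 cells IER3 has the widest gap between the groups.

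By mean level in HME-treated HepG2 cells, on the scale within the line, IER3 stood first at 3223 CPM, followed by IER2 (255 ± 47.3), KLF6 (199 ± 20.1), KLF10 (183 ± 246), EGR1 (167 ± 10.2), IER5 (77.6 ± 13.1), KLF5 (40.4 ± 7.87), ARC (7.57 ± 4.17), KLF4 (2.61 ± 1.18) and EGR2 (0.883 ± 0.284; SD, n = 3 throughout). IER3 lay above IER2 in every treated library. IER2, KLF6 and KLF10 overlapped in their spread, and EGR1 lay under KLF6 in each treated library while KLF10 lay on both sides of it. In the controls the order was IER2, IER3, KLF6, IER5, KLF10, EGR1 and KLF5, and IER2 and IER3 were within their spread of each other. EGR1 thus moved past IER5, from 3.40 against 6.86 CPM to 167 against 77.6 CPM.

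In Ls174 cells, 1 of the 8 genes with enough counts (IER3) was called higher with HME and none lower, beside 0.318% of 11319 genes called higher. IER3 and EGR1 passed the unadjusted thresholds of the study upward, beside 4.11% of all genes. Both had all HME libraries above all controls, as did 11.5% of all genes, and IER5 had all HME libraries below all controls, as did 12.3%. The median log2 fold change of the 8 genes was 0.43, beside 0.00 over all genes.

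IER3 had 300, 1065 and 1275 counts in Ls174 control cells (163, 356 and 352 CPM) and 2875, 2418 and 2587 with HME (1133, 930.0 and 921 CPM). Every treated library was above every control, and control 1, a library that stood apart, was the lowest. The log2 fold change was 1.77 ± 0.31 (SE), or 3.42-fold. The call was kept without control 1, at 1.49, and was lost without any 1 of the 5 other libraries, at 1.67 to 1.95, and with scaling by library size only, at 1.71.

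EGR1 had 24, 57 and 64 counts without HME (13.1, 19.1 and 17.7 CPM) and 65, 65 and 96 with it (25.6, 25.001 and 34.2 CPM) in Ls174 cells. Its groups did not overlap, and the log2 fold change of 0.76 ± 0.27 (SE), or 1.69-fold, was not called. IER5 had 46, 99 and 81 counts without HME (25.02, 33.1 and 22.4 CPM) and 53, 46 and 46 with it (20.9, 17.7 and 16.4 CPM). The direction of this difference, a log2 fold change of −0.55 ± 0.27 (SE) that was not called, was opposite to that in HepG2 cells. IER2 was at 322, 186 and 173 CPM without HME and at 283, 261 and 238 CPM with it, where control 1 lay above every treated library. Its log2 fold change was 0.20 ± 0.27 (SE).

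KLF5 was among the better expressed of these genes in Ls174 cells, with 116, 247 and 321 counts without HME (63.1, 82.6 and 88.6 CPM) and 175, 165 and 157 with it (68.9, 63.5 and 55.9 CPM). The groups overlapped, and the log2 fold change was −0.32 ± 0.21 (SE). KLF6 was at 27.2, 21.1 and 30.1 CPM and at 31.5, 25.001 and 29.5 CPM, a log2 fold change of 0.13 ± 0.25 (SE). KLF4, a gene of differentiated gut epithelium, had 10, 27 and 16 counts without HME (5.44, 9.03 and 4.42 CPM) and 42, 19 and 25 with it (16.5, 7.31 and 8.90 CPM). Its groups overlapped and the log2 fold change was 0.79 ± 0.48 (SE).

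KLF10 had 9, 32 and 20 counts in Ls174 control cells and 50, 14 and 24 with HME, a log2 fold change of 0.65 ± 0.56 (SE) that rested on HME 1 and was −0.02 without it. ARC had 0 counts in each control and 3, 3 and 0 with HME, at or under the floor in both groups, and EGR2 had 0 counts in all 6 Ls174 libraries. For these genes a change was not detectable at this depth.

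**Figure D2:**
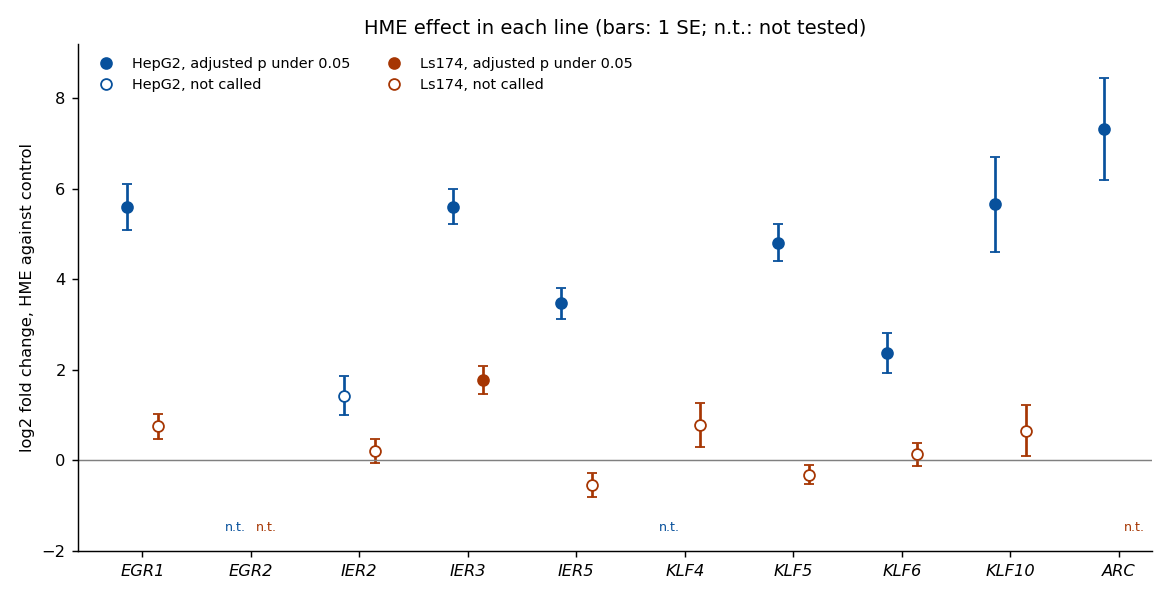
Log2 fold change of each gene with HME against control in HepG2 (blue) and Ls174 (brown) cells, with bars of 1 SE; filled points have an adjusted p under 0.05, open points do not, and n.t. marks genes with too few counts to be fitted. The HepG2 points of EGR1, IER3, KLF5 and KLF10 lie between 4.81 and 5.66, the ARC point depends on the number added to zero counts, and the Ls174 points lie between −0.55 and 1.77.

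The difference of the HME effect between the lines, fitted on all 12 libraries, was called larger in HepG2 cells for 4 genes (EGR1, IER3, IER5 and KLF5) and larger in Ls174 cells for none, beside 0.613% of 13040 genes called larger in HepG2 cells. All 8 genes with counts in the controls and a fit had the larger log2 fold change in HepG2 cells. In log2 units the difference was 5.10 ± 0.43 for KLF5, 4.82 ± 0.52 for EGR1, 3.99 ± 0.43 for IER5 and 3.80 ± 0.48 for IER3 (SE). For the genes that were not called it was 4.98 ± 1.25 for KLF10, 2.22 ± 0.51 for KLF6, 2.05 ± 1.05 for KLF4 and 1.24 ± 0.50 for IER2. Without HepG2 HME 2 the KLF10 difference was 2.79, without Ls174 HME 1 it was 5.62, and without HepG2 control 1, which held all 3 counts of KLF4 in the HepG2 controls, the KLF4 difference was 5.15. EGR2 was not fitted, and ARC, which was fitted, is set aside because it was at 0 in all 6 control libraries and its fitted difference depends on the number added to zero counts. KLF6 and KLF10 were also called with DESeq2 and with no filter on low counts, and KLF6 was called without HepG2 control 1.

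Between the untreated lines, 5 of 8 genes were called lower in HepG2 than in Ls174 cells (EGR1, IER3, IER5, KLF4 and KLF5), beside 9.33% of 11907 genes, and none was called higher. EGR1, IER5 and KLF4 lost this call without HepG2 control 3 or Ls174 control 2, and EGR1 also without HepG2 control 1 or Ls174 control 3. The same control libraries enter this comparison and the effect of HME in each line, so that the comparisons are not independent of one another. On the scale over all 12 libraries KLF5 was at 1.61, 1.25 and 1.62 CPM in HepG2 and at 57.0, 76.7 and 82.2 CPM in Ls174 controls, a log2 difference of −5.50 ± 0.42 (SE), or 45.2-fold lower in HepG2 cells. KLF4 had 3 counts in the HepG2 controls together and 53 in the Ls174 controls together, a ratio of 15.04 with an exact 95% interval of 4.87 to 75.2 that covers counting error only. EGR1 was at 5.38, 4.36 and 1.21 CPM against 11.8, 17.7 and 16.4 CPM, IER3 at 82.5, 53.6 and 80.4 against 148, 331 and 326 CPM, and IER5 at 9.68, 6.23 and 6.47 against 22.6, 30.7 and 20.7 CPM. In each of these the lines did not overlap, and the log2 differences were −2.01 ± 0.59, −1.86 ± 0.41 and −1.67 ± 0.41 (SE). The share of all genes without overlap between the untreated lines was not computed, so that this separation cannot be set against it.

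The remaining genes overlapped between the untreated lines. IER2 was at 64.5, 162 and 76.0 CPM in HepG2 and 291, 173 and 161 CPM in Ls174 controls (log2 difference −0.99 ± 0.46, SE), KLF10 at 2.49 to 4.84 and 4.43 to 9.93 CPM (−0.72 ± 0.56), and KLF6 at 17.8 to 62.9 and 19.6 to 27.9 CPM (0.82 ± 0.47). KLF6 was the single gene of the 8 with the higher mean in untreated HepG2 cells. With HME the order of the lines was the other way round for EGR1 (179.7 ± 11.02 CPM in HepG2 and 26.1 ± 4.71 CPM in Ls174 cells), IER3 (3463 ± 346 and 919 ± 111 CPM) and IER5 (83.4 ± 14.4 and 16.9 ± 2.15 CPM; SD, n = 3). KLF5 and KLF4 kept the higher mean in Ls174 cells, at 43.4 ± 8.45 and 58.0 ± 6.11 CPM for KLF5 and at 2.81 ± 1.28 and 10.1 ± 4.57 CPM for KLF4. These levels with HME were not tested between the lines.

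**Figure D3:**
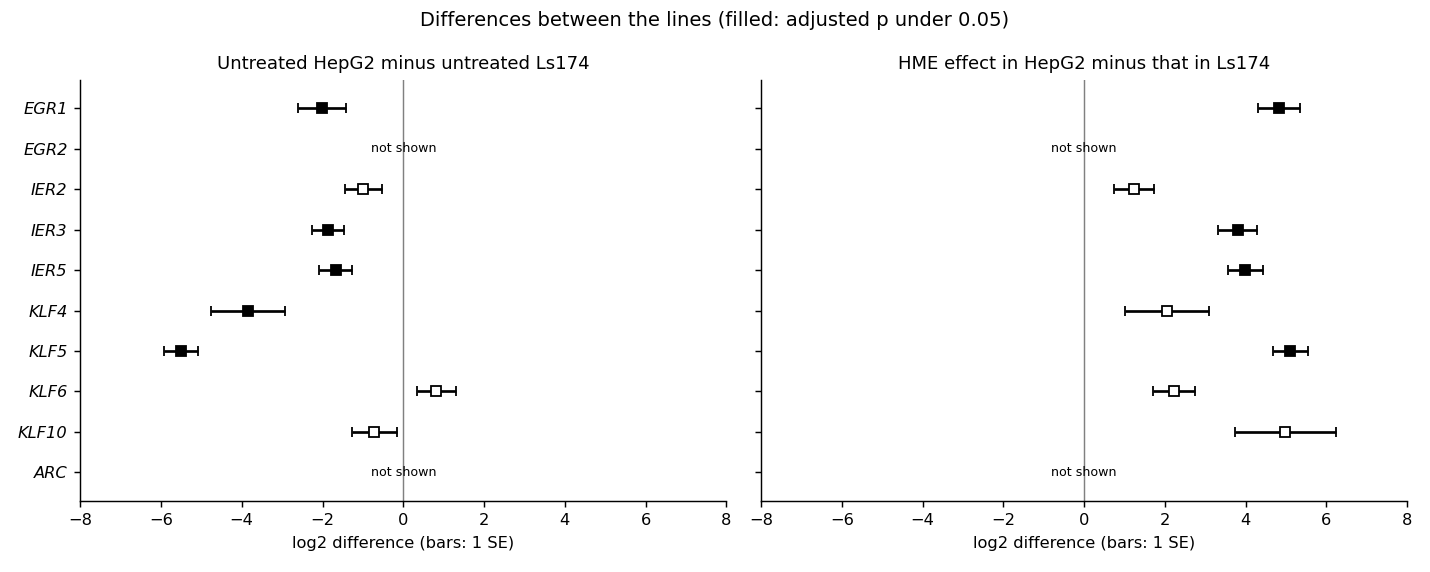
Log2 difference between untreated HepG2 and untreated Ls174 cells (left) and between the HME effect in HepG2 and that in Ls174 cells (right) for the 10 genes, with bars of 1 SE and filled squares for an adjusted p under 0.05. The left panel lies below 0 for 7 of the 8 genes shown (all but KLF6), the right panel lies above 0 for all 8, and both panels rest in part on the same control libraries.

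Genes around the 10 were taken from 6 lists with 82 genes. Like the 10 genes, the lists were chosen with earlier results of these data known. Their counts and adjusted p-values are therefore a description and no independent evidence of a response. In HepG2 cells 66 of them were fitted, 25 rose with HME (2.77% of all genes did) and none fell, and in Ls174 cells 63 were fitted, 3 rose (0.318% of all genes did) and none fell, by edgeR's quasi-likelihood test with Benjamini-Hochberg adjustment over all genes. Most of those that rose were in a list of 38 other immediate early genes, of which 23 of 34 fitted rose in HepG2 cells (median log2 fold change 2.62) and 3 of 28 in Ls174 cells (median 0.54). In the families of the 10 genes, IER5L, a relative of IER5, rose in HepG2 cells (log2 fold change 2.41 ± 0.48, SE, adjusted p = 0.0271), from 1.74 ± 0.492 to 9.11 ± 1.22 CPM, a call lost without any 1 of 5 libraries (all but control 2), and its change differed between the lines (2.92 ± 0.51, adjusted p = 0.0174). KLF11, the closest relative of KLF10, rose from 4.43 ± 2.47 to 51.0 ± 7.58 CPM in HepG2 cells (3.42 ± 0.43, adjusted p = 0.00332). It was the single gene to rise among 5 other KLF genes fitted, of 13 listed. The median log2 fold changes in HepG2 and Ls174 cells were 1.06 and −0.28 for the IER list, which has 2 genes, and 0.35 and 0.21 for the KLF list.

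None of the 6 fitted genes for SRF and its cofactors was called in either line, and SRF itself was at 134 ± 2.53 CPM in control and 184 ± 7.01 CPM in HME-treated HepG2 cells (log2 fold change 0.46 ± 0.28, SE, adjusted p = 0.347). Of the MAP kinase relay, 17 genes in HepG2 and 18 in Ls174 cells were fitted without a call. EGFR in Ls174 cells came closest, at 14.6 ± 3.07 CPM in control and 3.51 ± 0.42 CPM with HME. Its log2 fold change there was −2.03 ± 0.39 (SE, adjusted p = 0.0545), while 9 of the 18 genes had positive values. MAP2K2, the gene of this list with the highest mean over the 4 groups, was at 268 ± 276 and 135 ± 23.3 CPM in HepG2 cells, where the spread of the controls exceeds the difference. For the EGR family and its NAB corepressors 2 of 4 genes were fitted without a call, and NAB1, which binds EGR proteins and represses them, had log2 fold changes of −0.41 ± 0.43 in HepG2 and −0.55 ± 0.28 in Ls174 cells (SE). The other fitted gene, NAB2, had the opposite sign, at 1.80 ± 0.73 in HepG2 and 0.63 ± 0.65 in Ls174 cells (SE). The median log2 fold changes in HepG2 and Ls174 cells were 0.70 and −0.66 for the SRF list, 0.33 and −0.01 for the relay, and 0.69 and 0.04 for the EGR list, beside −0.04 and 0.00 over all genes.

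Of the other immediate early genes, 7 of 8 AP-1 and ATF components listed rose in HepG2 cells, with log2 fold changes of 4.07 ± 0.52 for JUN, 2.62 ± 0.57 for JUNB, 3.70 ± 0.67 for FOSB, 2.49 ± 0.34 for FOSL1, 2.66 ± 0.45 for FOSL2 and 5.57 ± 0.45 for ATF3 (SE), and FOS, at 0 in the controls, was at least 9.44-fold higher. JUND did not pass (0.93 ± 0.52, adjusted p = 0.315). The MAP kinase phosphatases DUSP5, DUSP1 and DUSP6 rose by 5.62 ± 0.43, 3.68 ± 0.35 and 2.62 ± 0.49 on the log2 scale. Other genes that rose in HepG2 cells were the nuclear receptor NR4A1 (4.39), the transcript-destabilizing ZFP36 (from at most 3 counts in a control library to 14.4 ± 3.20 CPM), the polo-like kinases PLK2 (3.58) and PLK3 (3.56), CSRNP1 (4.56), MAFF (3.27), TRIB1 (2.51), GADD45A (2.65), GADD45B (3.01), BTG1 (2.33), the survival factor MCL1 (1.59), the NF-kB inhibitor NFKBIA (2.58) and the chemokine CCL20 (4.18). Values of FOSB, CSRNP1 and CCL20 moved to 5.06, 5.62 and 5.09 without control 1, that of JUNB to 3.58 without control 2, that of PLK2 to 4.27 without control 3 and that of NR4A1 to 3.79 without HME 3. Over all alternatives 10 of the 25 listed genes called lost their call at least once. GADD45A, IER5L and MCL1 lost it in 6 alternatives each, and JUNB in 5. FOSB and NFKBIA lost it in 4 each, BTG1, DUSP6 and FOSL2 in 3 each, and CCL20 in 2. The adjusted p-values ran from 0.00062 for ATF3 and DUSP5 to 0.04 for JUNB. In Ls174 cells CCL20 (7.07 ± 0.54, adjusted p = 0.0064), the neutrophil chemokine CXCL2 (3.05 ± 0.33, adjusted p = 0.0134) and the phosphatase DUSP4 (1.37 ± 0.23, adjusted p = 0.0348) rose. CCL20 had at most 7 counts in a control library (mean 0.756 CPM) and a value of 8.99 without control 3, and each of the 3 genes lost its call without any 1 of the HME libraries. The change differed between the lines for 10 of 72 listed genes fitted (0.613% of all genes were called so), each with the larger change in HepG2 cells, among them DUSP5 (5.71 ± 0.69, adjusted p = 0.000985) and NR4A1 (4.91 ± 0.79, adjusted p = 0.0114).

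**Figure D4:**
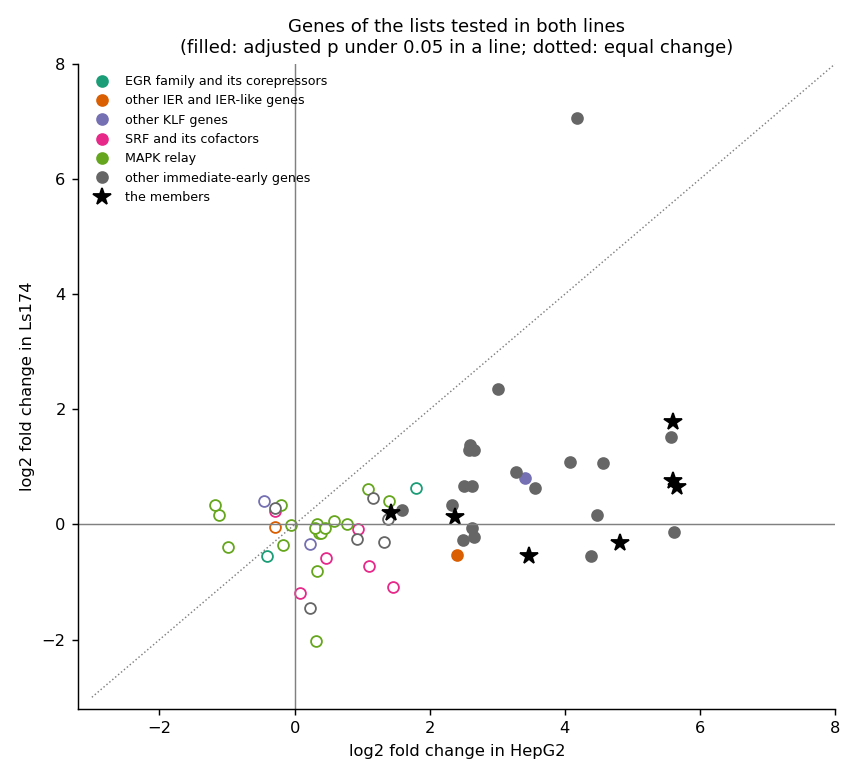
Log2 fold change with HME in HepG2 cells (horizontal) against that in Ls174 cells (vertical) for the 57 listed genes fitted in both lines (circles, filled where the adjusted p was under 0.05 in a line) and the 7 of the 10 genes fitted in both (stars); the dotted line marks equal change. 47 of the 57 listed genes lie to the right of the dotted line, and CCL20 is the filled circle above it.

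The genes whose log2 level followed those of EGR1, IER3 and KLF6 most closely over the 12 libraries are given as a description, since the libraries fall into 4 groups and share their scaling. Among 12670 genes with a mean of at least 5 CPM in a group, those most like EGR1 were EMP1 (an epithelial membrane protein, Pearson's r = 0.95), RSRC2 (0.943) and FOS (0.942). Those most like IER3 were AQP3 (a water and glycerol channel, 0.982), the kinase PIM3 (0.971) and CTH (an enzyme of cysteine synthesis, 0.97). Those most like KLF6 were CCNL1 (a cyclin linked to splicing, 0.99), the non-coding RP11-37O16.8 (0.972) and the ligand WNT11 (0.969). On the scale over all libraries PIM3 was at 86.6 ± 31.2 CPM in control and 834 ± 76.4 CPM in HME-treated HepG2 cells, and at 184 ± 25.8 and 265 ± 30.1 CPM in Ls174 cells, the same order of groups as IER3. CCNL1 was at 55.7 ± 12.02 and 115.9 ± 6.71 CPM in HepG2 and at 48.0 ± 5.16 and 48.0 ± 3.59 CPM in Ls174 cells.

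**Figure D5:**
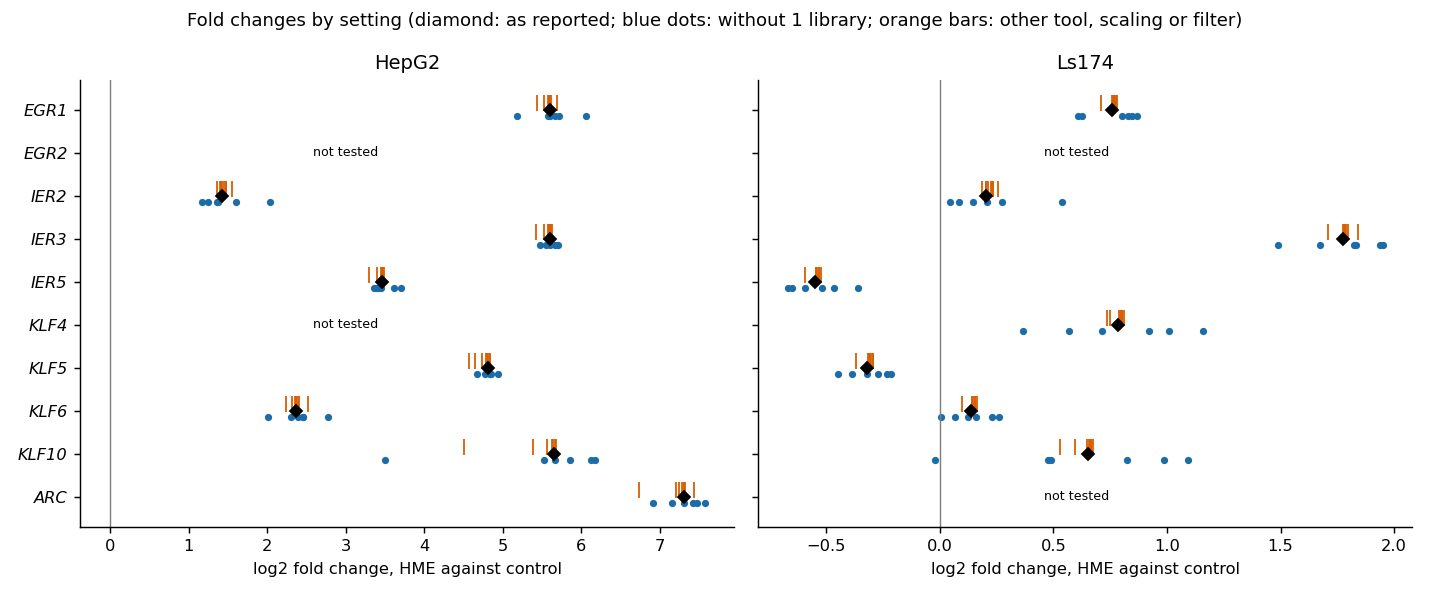
Log2 fold change of each gene with HME in HepG2 (left) and Ls174 (right) cells as reported (diamonds), without each library in turn (blue dots) and with another tool, scaling, filter or model (orange bars); the horizontal axes differ between the panels. In HepG2 cells each value stays above 0, and KLF10 moves most, to 3.51 without HME 2; in Ls174 cells KLF10 crosses 0 without HME 1.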

How the data were processed

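RNA of 12 libraries (2 cell lines, control and HME, 3 each) was measured as 3′ reads. Per the study's methods, the authors used the QuantSeq kit, an Ion Proton instrument, FASTQC, Hisat2 at default settings with hg19 and metaseqR2, and the submitters' processing notes also name Bowtie2 and Trimmomatic. The deposited counts are whole numbers of reads per 3′ region, not normalized, and were summed here over the regions of each gene. The treatment of multiple alignments and of strand was not given in the sources used here. Replicates differed beyond sampling noise, so none was a duplicate.

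Each line was fitted alone with edgeR 4.0.16 (quasi-likelihood F test after TMM normalization and filterByExpr, with limma 3.58.1 and R 4.3.3); the difference of the HME effect was fitted on all 12 libraries and the untreated lines on the 6 controls. SEs come from the F statistic. Adjusted p-values are two-sided Benjamini-Hochberg values over all genes fitted, called under 0.05. Alternatives were DESeq2 1.42.0, library size, upper-quartile and DESeq2 scaling, no filter, at least 10 counts in every library, a fit with all 12 libraries, the most counted region only, replicate numbers as a block, and leaving out each library. The procedure was tested on simulated data. Motifs were counted with Python 3.11.15, numpy 2.4.6 and pandas 2.3.3, and figures drawn with matplotlib 3.10.9.

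The 10 genes, the lists and the rule for named genes (all 10 genes, each listed gene with an adjusted p under 0.05 in a line or else the list's highest, and the 3 most like EGR1, IER3 and KLF6) were chosen with earlier results of these data known. Counting intervals and the floor of 3 counts cover counting error only.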

Additional observations from a re-analysis of the deposited data

Results flagged for a closer look

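The effect of HME was called different between the lines for 4 of the 10 genes, each with the larger change in HepG2 cells. The genes had been chosen with these values known, so that the calls describe the choice and are no independent evidence of a difference. The difference in log2 units was 4.82 for EGR1, 3.80 for IER3, 3.99 for IER5 and 5.10 for KLF5. IER5 and KLF5 had negative, uncalled values in Ls174 cells (−0.55 and −0.32), whereas EGR1 and IER3 had positive values in both lines. For each of the 4 genes the untreated level was also called lower in HepG2 than in Ls174 cells, and both comparisons use the same control libraries.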

How the results depend on the processing

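In HepG2 cells 7 of the 10 genes were called higher, and between 7 and 8 under every change of tool, scaling, model or counted region. With at least 10 counts in every library 4 genes could be fitted and 3 were called, and leaving out 1 library gave 5 to 8. In Ls174 cells the single call (IER3) was lost with library size only (0 calls) and with the replicate number as a block (0), and leaving out 1 library gave 0 to 1. The difference between the lines was called for 4 genes, for 6 with DESeq2 and with no filter, for 2 with at least 10 counts, and for 4 to 5 with 1 library left out. The untreated lines differed in 5 genes, in 2 with at least 10 counts, in 2 (IER3 and KLF5) with the replicate block, and in 2 to 6 with 1 library left out (2 without HepG2 control 3 or without Ls174 control 2). Of the listed genes 25 were called higher in HepG2 cells, 12 with at least 10 counts and 15 to 30 with 1 library left out (16 without control 3, 15 without HME 3). In Ls174 cells 3 listed genes were called, 5 with DESeq2, 8 with no filter, 1 with at least 10 counts, 0 with the replicate block and 0 to 8 with 1 library left out (8 without control 1). KLF10 in Ls174 cells changed sign without HME 1, and ranged from −0.021 to 1.09 with 1 library left out. Fewer genes were fitted with at least 10 counts; otherwise the cause was not tested.

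The replicate numbers did not pair the libraries. Deviations from the group means correlated between same-numbered control and HME libraries at −0.17, 0.09 and −0.12 in HepG2, and at −0.04, −0.01 and −0.05 in Ls174 cells, and between same-numbered untreated libraries at −0.38, −0.31 and 0.11. Libraries of different numbers correlated at −0.20 to 0.31 in HepG2 cells and at −0.28 to 0.35 between the untreated lines. The highest value, 0.35, was between HepG2 control 2 and Ls174 control 1, which both stood apart within their groups. Its source was not tested. With the block 7 genes were called in HepG2 cells and 4 for the difference between the lines, as without it. Of the listed genes named in the report, IER5L and MCL1 in HepG2 cells were not called with it. No comparison between 3′ ends was run, since no gene had 2 regions with at least 10% of its counts over the 12 libraries together. EGR2, KLF4 in HepG2 and ARC in Ls174 cells were limited by depth, at a floor of 3 counts per library.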
